A study of Mus musculus with 10 samples.

Results

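The undifferentiated spermatogonia factors are 10 mouse genes that were followed here in whole testes of young mice and in spermatocytes. They are Gfra1, Ret, Etv5, Bcl6b, Zbtb16, Sall4, Taf4b, Nanos2, Nanos3 and Cdh1. They were chosen by name, with earlier results of these data known. Each was taken from the row that carries its symbol, so that they make up 10 of the 36806 rows of every table. RNA sequencing was done on C57BL/6 littermates that lacked Ago4 (Ago4-/-) or carried it (Ago4+/+), where Ago4 encodes an Argonaute protein, a protein that binds small RNAs. The mRNA libraries, 8 in all, came from whole testes of mice aged 3 and 8 days and from leptotene/zygotene and pachytene spermatocytes of mice aged 70 days, with 1 library for each genotype and stage. The other 2 libraries, of small RNA, are not analysed here. The sources used here give neither how the Ago4 allele was made nor whether animals were pooled.

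Each of 4 deposited tables sets a second condition against a first condition, for day 3, pre-meiotic, leptotene/zygotene and pachytene material. The conditions carry numbers only. Their genotypes, and whether the numbers keep their order in every table, are points that no source used here settles. Values are therefore given for the second and the first condition with no genotype attached. No label ties the pre-meiotic table to an age, though testes aged 8 days are without a table of their own. Levels are in FPKM, fragments per kilobase of transcript scaled to the mapped fragments of the library, a unit that corrects for transcript length. With 1 library per condition there is no replicate error, and the tests are those of the authors, made by Cuffdiff between 2 libraries.

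Undifferentiated spermatogonia are the germ cells that both renew themselves and give rise to all later stages of sperm formation, and they include the spermatogonial stem cells. In the mouse testis, somatic cells secrete the growth factor GDNF, which binds the co-receptor GFRA1 on these cells and signals through the receptor tyrosine kinase RET. The signal raises the transcription factors ETV5 and BCL6B, which are needed for self-renewal in the mouse. ZBTB16, also known as PLZF, and SALL4 are zinc finger transcription factors of the same cells, and TAF4B is a germline form of a subunit of the general transcription factor TFIID. NANOS2 and NANOS3 are RNA-binding proteins, and NANOS2 keeps spermatogonia from differentiating. CDH1, or E-cadherin, is a cell adhesion protein used as a surface marker of undifferentiated spermatogonia. When retinoic acid acts, these cells switch on KIT and STRA8 and move towards meiosis.

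The promoters of the members that differed together at day 3 are shown for the 4 genes that the RefSeq table of promoters holds, with the build GRCm38.p6. Each is the 250 bases before the start of the gene, 5′ to 3′ on the strand of the gene, and of the Etv5 windows the one farther upstream is printed. Capitals mark the GC box GGGCGG, the CCAAT box, the TATA box TATAAA and the forkhead box motif GTAAACA, searched on both strands, so that a match on the other strand reads as ATTGG for the CCAAT box or as TTTATA for the TATA box. No marked motifs overlap. Gfra1 has the window chr19:58455399-58455648 on the minus strand, Etv5 chr16:22439571-22439820 on the minus strand, Nanos2 chr7:18987274-18987523 on the plus strand and Nanos3 chr8:84176553-84176802 on the minus strand.
Gfra1: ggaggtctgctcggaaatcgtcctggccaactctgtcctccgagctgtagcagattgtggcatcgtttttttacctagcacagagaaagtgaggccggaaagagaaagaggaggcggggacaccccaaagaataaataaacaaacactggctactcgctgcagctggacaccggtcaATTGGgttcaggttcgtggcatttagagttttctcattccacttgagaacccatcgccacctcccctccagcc
Etv5: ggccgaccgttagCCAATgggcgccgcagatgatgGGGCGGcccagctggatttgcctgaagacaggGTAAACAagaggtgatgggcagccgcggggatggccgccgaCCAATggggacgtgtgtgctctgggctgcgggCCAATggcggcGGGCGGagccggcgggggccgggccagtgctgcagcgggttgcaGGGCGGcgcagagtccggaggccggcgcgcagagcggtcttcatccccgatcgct
Nanos2: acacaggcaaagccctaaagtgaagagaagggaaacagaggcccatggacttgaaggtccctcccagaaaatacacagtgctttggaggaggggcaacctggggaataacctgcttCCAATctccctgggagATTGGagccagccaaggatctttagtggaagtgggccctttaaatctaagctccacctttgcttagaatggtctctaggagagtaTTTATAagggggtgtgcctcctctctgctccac
Nanos3: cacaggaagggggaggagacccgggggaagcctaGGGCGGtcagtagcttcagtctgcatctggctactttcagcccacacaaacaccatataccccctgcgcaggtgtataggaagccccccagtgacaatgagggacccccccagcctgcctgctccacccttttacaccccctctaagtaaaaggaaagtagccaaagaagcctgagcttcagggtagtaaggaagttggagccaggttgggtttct

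No motif searched was found in all 4 windows. CANNTG, the E box, which is not marked in capitals, was found 3 times before Gfra1 and 2 times each before Etv5 and Nanos3, and 66.2% of all windows held it. CCAAT was found 1 time before Gfra1, 3 times before Etv5 and 2 times before Nanos2, and 33.8% of all 32851 promoter windows of the same length held it. GGGCGG was found 3 times before Etv5 and 1 time before Nanos3, and 32.7% of all windows held it. TATAAA was found before Nanos2 only, and 12.4% of all windows held it. GTAAACA was found before Etv5 only, against 3.17% of all windows. The bases G and C made up 71.2% of the Etv5 window, and between 50.8% and 56.4% of the other 3 windows, with a median of 52.4% over all windows. A match describes the letters of a window and is not a binding site.

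In the coordinates of the tables (build not given in the sources used here), the loci differed widely in length. No member has the same start in these coordinates as in GRCm38.p6, so they are not to be set against the promoter windows above. Nanos2 (chromosome 7, 19572872 to 19574311) spans 1.44 kb, Nanos3 (chromosome 8, 86697631 to 86700451) 2.82 kb and Bcl6b (chromosome 11, 70037629 to 70043300) 5.67 kb. Sall4 (chromosome 2, 168573831 to 168593608) spans 19.8 kb, Ret (chromosome 6, 118101765 to 118147762) 46.0 kb, Etv5 (chromosome 16, 22381381 to 22439792) 58.4 kb and Cdh1 (chromosome 8, 109127250 to 109194146) 66.9 kb. The widest were Taf4b (chromosome 18, 14941753 to 15058868) at 117 kb, Zbtb16 (chromosome 9, 48462415 to 48644050) at 182 kb and Gfra1 (chromosome 19, 58278628 to 58530399) at 252 kb. The loci of 3 members hold a further annotated gene, and with no strand-specific step in the labels, reads of such pairs cannot be told apart. The partner of Gfra1, Gm16277, was the higher of the pair in both spermatocyte tables, at 6.66 FPKM in the second and 7.30 FPKM in the first condition at leptotene/zygotene and at 3.71 FPKM in the second and 5.32 FPKM in the first condition at pachytene. The partners of Ret and Sall4 stayed at or under 0.121 FPKM in all 8 columns.

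As a check of the targeted gene, Ago4, listed under its older symbol Eif2c4, had 1.23 FPKM in the second and 0.897 FPKM in the first condition at day 3, and 3.34 FPKM in the second and 2.53 FPKM in the first condition of the pre-meiotic table. It had 3.26 FPKM in the second and 1.67 FPKM in the first condition at leptotene/zygotene, and 12.1 FPKM in the second and 4.37 FPKM in the first condition at pachytene. The q-values of Ago4 in the authors' deposited tables were 0.420 at day 3, 0.672 in the pre-meiotic table, 0.0385 at leptotene/zygotene and 0.000147 at pachytene. It was thus called higher in the second condition of both spermatocyte tables. The transcript was present in all 8 columns, and these levels were not used to tell the genotypes apart.

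Sertoli cell markers summed to between 3723 and 4113 FPKM in the 4 columns of whole young testis and to between 63.7 and 163 FPKM in the 4 columns of spermatocytes. Germ cell genes such as Ddx4 and Dazl summed to 80.6 FPKM in the second and 103 FPKM in the first condition at day 3, and to between 468 and 1875 FPKM in the later tables. Leptotene and zygotene genes were not at their highest in the leptotene/zygotene table, with sums of 113 FPKM in the second and 133 FPKM in the first condition. Their sums were 125 FPKM in the second and 218 FPKM in the first condition of the pre-meiotic table. At pachytene they were 353 FPKM in the second and 361 FPKM in the first condition. Stage names here are therefore those of the labels. Pachytene genes summed to 5666 FPKM in the second and 5887 FPKM in the first condition at leptotene/zygotene, near the 6311 FPKM in the second and 6287 FPKM in the first condition at pachytene. Spermatid genes were higher in the leptotene/zygotene columns (53821 FPKM in the second, 45503 FPKM in the first condition) than in the pachytene columns (8882 FPKM in the second, 6758 FPKM in the first condition). In whole testis and in cell preparations alike, fewer cells of a type and less RNA per cell cannot be told apart.

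**Figure D1:**
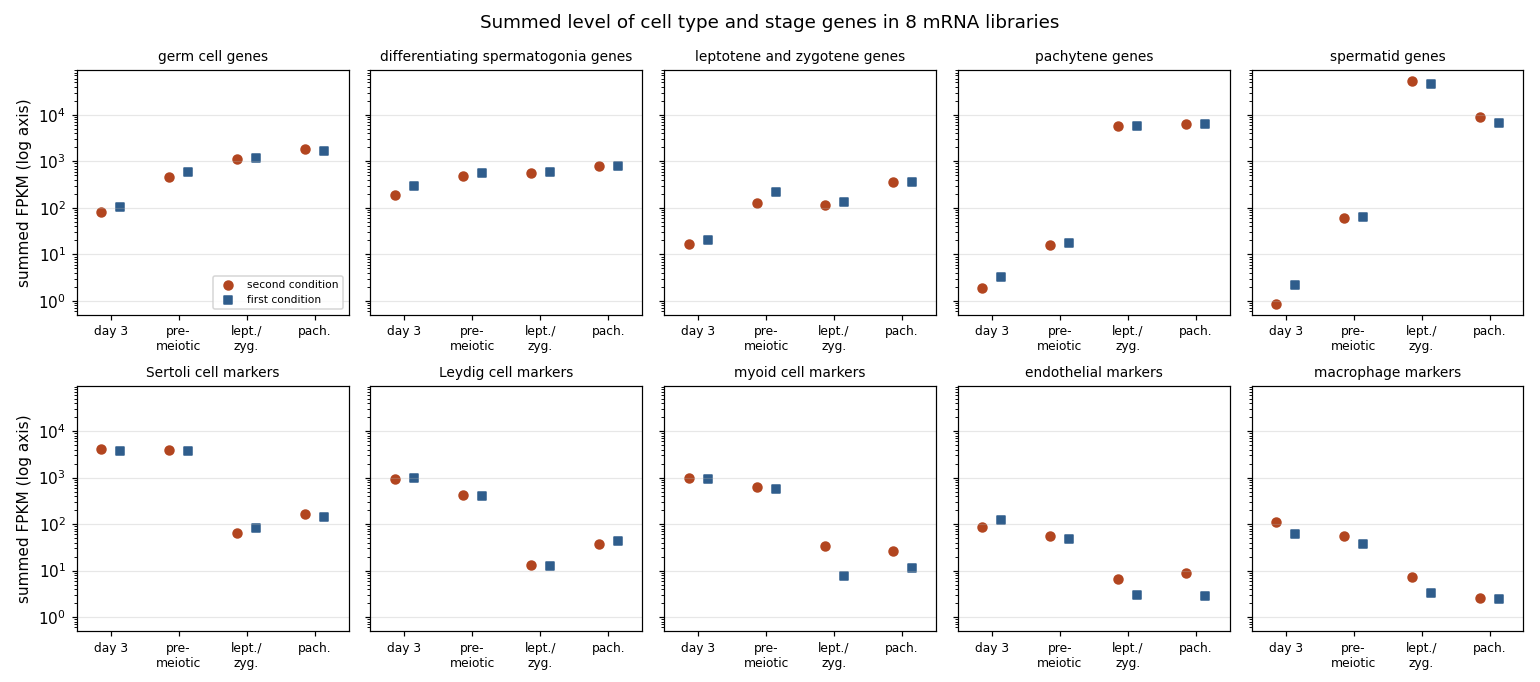
Summed FPKM (log axis) of lists of cell type and stage genes, with 1 point per library, the second condition left of the first in each of the 4 tables. Sertoli, Leydig, myoid, endothelial and macrophage markers sit lower in the spermatocyte tables than in the young testis tables, and spermatid genes peak in the leptotene/zygotene table.

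All 10 members had their highest mean level in a table of young testis, and both leptotene/zygotene libraries of each were below both pre-meiotic libraries. Over all genes, 60.1% were lower in this way and 30.2% higher. The tables were normalised separately, so levels set across them are a description with no test. Members were split between those at their highest at day 3 and those at their highest in the pre-meiotic table, 5 of each.

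The receptor genes overlapped between the young testis tables and were lower afterwards. Gfra1 was at 3.96 FPKM in the second and 10.9 FPKM in the first condition at day 3, at 7.41 FPKM in the second and 6.54 FPKM in the first condition of the pre-meiotic table, at 2.78 FPKM in the second and 2.46 FPKM in the first condition at leptotene/zygotene, and at 1.67 FPKM in the second and 1.89 FPKM in the first condition at pachytene. The day 3 and pre-meiotic ranges overlapped, and Gfra1 was the member that differed least between the pre-meiotic and the leptotene/zygotene table, by -1.38 on the log2 scale. The partner at its locus, Gm16277, was at its highest at leptotene/zygotene, and whether its reads added to those of Gfra1 was not tested. Ret was at 7.14 FPKM in the second and 15.8 FPKM in the first condition at day 3, at 12.3 FPKM in the second and 9.21 FPKM in the first condition of the pre-meiotic table, at 0.491 FPKM in the second and 0.469 FPKM in the first condition at leptotene/zygotene, and at 0.760 FPKM in the second and 0.225 FPKM in the first condition at pachytene. Its leptotene/zygotene level was 18.5-fold below the pre-meiotic one, a log2 ratio of -4.21.

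Among the transcription factors downstream of GDNF, Etv5 had the highest level of all members at day 3. It was at 19.9 FPKM in the second and 45.6 FPKM in the first condition at day 3, at 18.8 FPKM in the second and 14.1 FPKM in the first condition of the pre-meiotic table, at 1.08 FPKM in the second and 1.56 FPKM in the first condition at leptotene/zygotene, and at 2.99 FPKM in the second and 1.496 FPKM in the first condition at pachytene. Both pre-meiotic libraries were below both day 3 libraries, by a log2 difference of -0.88. Bcl6b followed the same order, at 7.10 FPKM in the second and 8.53 FPKM in the first condition at day 3, at 5.82 FPKM in the second and 4.27 FPKM in the first condition of the pre-meiotic table, at 0.956 FPKM in the second and 0.695 FPKM in the first condition at leptotene/zygotene, and at 1.72 FPKM in the second and 1.46 FPKM in the first condition at pachytene. Etv5 and Bcl6b were the only members lower in both pre-meiotic than in both day 3 libraries, 2 of 10, against 39.3% of all genes.

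Zbtb16 showed the widest difference of level between the young testis tables. It was at 1.098 FPKM in the second and 3.94 FPKM in the first condition at day 3, at 21.5 FPKM in the second and 19.6 FPKM in the first condition of the pre-meiotic table, at 0.927 FPKM in the second and 0.711 FPKM in the first condition at leptotene/zygotene, and at 0.903 FPKM in the second and 0.690 FPKM in the first condition at pachytene. The pre-meiotic level was 9.38-fold above day 3, and the leptotene/zygotene level 22.6-fold below the pre-meiotic one. Sall4 was at 14.9 FPKM in the second and 19.7 FPKM in the first condition at day 3, at 26.4 FPKM in the second and 31.1 FPKM in the first condition of the pre-meiotic table, at 0.695 FPKM in the second and 4.11 FPKM in the first condition at leptotene/zygotene, and at 1.01 FPKM in the second and 3.56 FPKM in the first condition at pachytene. It was the highest member of the pre-meiotic table, 1.67-fold above day 3.

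Taf4b stood at rank 6 of the members by mean level at day 3 and at rank 1 in both spermatocyte tables. It was at 3.37 FPKM in the second and 3.86 FPKM in the first condition at day 3, at 17.4 FPKM in the second and 24.2 FPKM in the first condition of the pre-meiotic table, at 2.60 FPKM in the second and 3.20 FPKM in the first condition at leptotene/zygotene, and at 3.44 FPKM in the second and 3.05 FPKM in the first condition at pachytene. The pre-meiotic level was 5.56-fold above day 3. In both spermatocyte tables its range lay within that of Sall4, and the order of these neighbours is not fixed by the data.

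Of the NANOS genes, Nanos2 had the lowest mean level of the members in all 4 tables. Nanos2 was at 0.133 FPKM in the second and 0.519 FPKM in the first condition at day 3 and at 1.71 FPKM in the second and 0.847 FPKM in the first condition of the pre-meiotic table. It was listed at 0 in both conditions at leptotene/zygotene, and at 0 in the second and 0.0780 FPKM in the first condition at pachytene. Nanos3 was at 2.11 FPKM in the second and 4.96 FPKM in the first condition at day 3, at 9.07 FPKM in the second and 4.36 FPKM in the first condition of the pre-meiotic table, and at 1.04 FPKM in the second and 1.004 FPKM in the first condition at pachytene. At leptotene/zygotene it was at 0.954 FPKM in the second condition and listed at 0 in the first. Cdh1, the adhesion gene, was at 1.88 FPKM in the second and 4.06 FPKM in the first condition at day 3, at 2.10 FPKM in the second and 1.93 FPKM in the first condition of the pre-meiotic table, at 0.159 FPKM in the second and 0.247 FPKM in the first condition at leptotene/zygotene, and at 0.519 FPKM in the second and 0.126 FPKM in the first condition at pachytene.

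**Figure D2:**
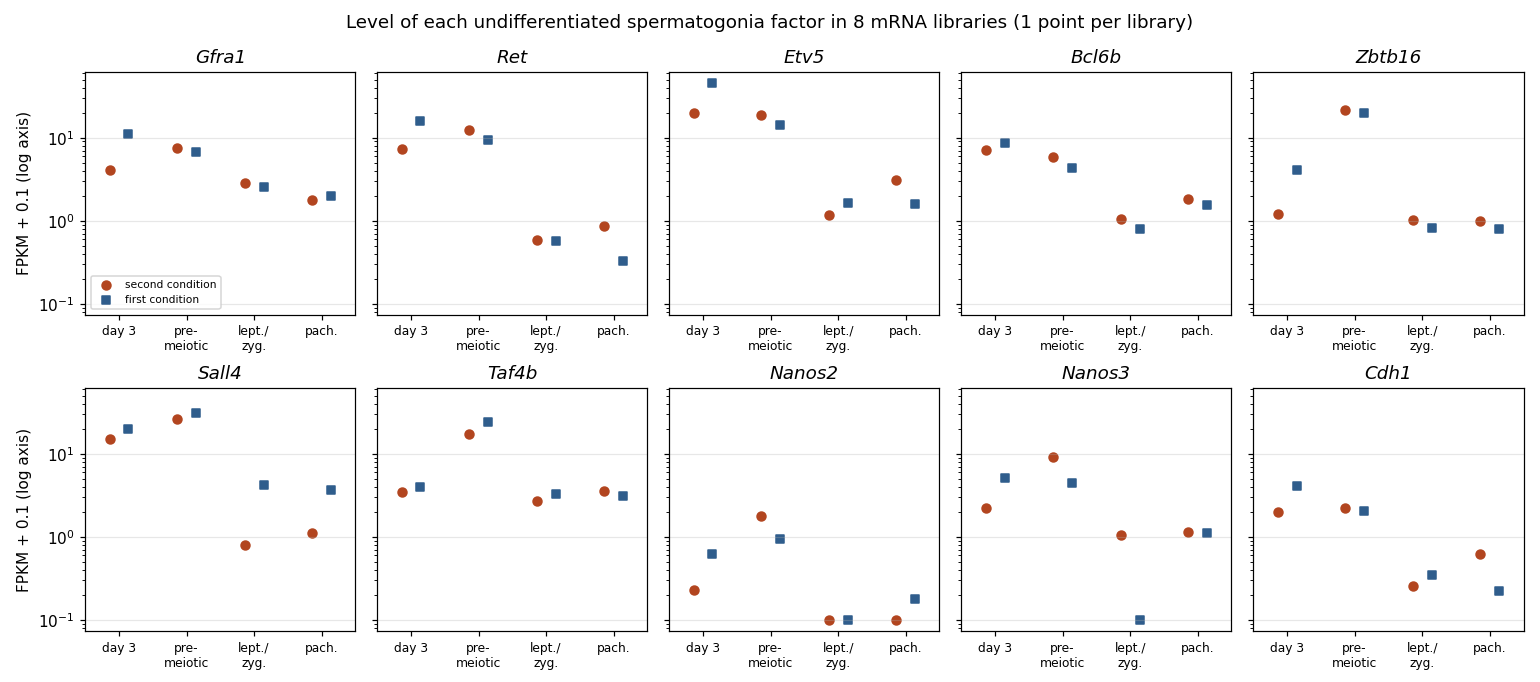
Level of each member as FPKM + 0.1 on a log axis, with 1 point per library, the second condition left of the first in each of the 4 tables; a library listed at 0 sits at 0.1. At day 3 the first condition is the higher in all 10 panels, and the leptotene/zygotene points lie below the pre-meiotic points in all 10.

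By mean level, the members at day 3 ran from Etv5 through Sall4, Ret, Bcl6b, Gfra1, Taf4b, Nanos3, Cdh1 and Zbtb16 to Nanos2. Neighbours in this order had separate ranges only between Etv5 and Sall4, between Gfra1 and Taf4b and between Zbtb16 and Nanos2, and the order of the others lies within the spread of the pair of libraries. In the pre-meiotic table the order was Sall4, Taf4b, Zbtb16, Etv5, Ret, Gfra1, Nanos3, Bcl6b, Cdh1 and Nanos2. The ranges of Taf4b and Zbtb16 overlapped there, and the range of Nanos3 overlapped that of Gfra1 and that of Bcl6b. At leptotene/zygotene the order was Taf4b, Gfra1, Sall4 and Etv5, each overlapping the next, and then Bcl6b, Zbtb16, Ret, Nanos3, Cdh1 and Nanos2, all under 1 FPKM.

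Across the members, 4 were higher in both pre-meiotic than in both day 3 libraries (Zbtb16, Taf4b, Nanos2 and Sall4), 2 were lower and 4 overlapped, where 32% of all genes were higher. The median log2 ratio of the members was 0.41, beside -0.11 over all genes, but it was -0.45 with the first condition of each table alone and 0.85 with the second alone. Divided by the geometric mean of Ddx4 and Dazl, taken here as a rough scale of germ cell RNA, the median ratio was -2.44. On that scale Gfra1 was at 25.3% in the second and 48.8% in the first condition at day 3, and at 5.98% in the second and 4.35% in the first condition of the pre-meiotic table. Zbtb16, in contrast, was at 7.02% in the second and 17.7% in the first condition at day 3 and at 17.4% in the second and 13.02% in the first condition of the pre-meiotic table. The direction of the members' median between these tables thus depended on the library and on the scale. The scale itself varied with stage. Dazl was at 174 FPKM in the second and 233 FPKM in the first condition of the pre-meiotic table. At leptotene/zygotene it was at 21.4 FPKM in the second and 22.5 FPKM in the first condition. Ddx4 went the other way, from 88.1 FPKM in the second and 97.2 FPKM in the first condition to 271 FPKM and 272 FPKM.

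The lower level at leptotene/zygotene was not particular to the members, since 60.1% of all genes were lower in both libraries and 30.2% higher. Of 10 differentiating spermatogonia genes 7 were lower and 2 higher (median -3.50). Of 6 general germ cell genes 4 were lower and 2 higher (median -0.85). The members' median log2 ratio to the pre-meiotic table was -3.63, or -3.18 over the 8 members above 0 in all 4 libraries, beside -1.37 over all genes. Of 13 other genes of undifferentiated spermatogonia, 11 reached 1 FPKM in a library of either table, and 10 of these were lower in both leptotene/zygotene libraries, with 0 higher (median -4.77). Sertoli cell markers were lower in 11 of 11 (median -5.73) and Leydig cell markers in 6 of 6 (median -5.59), and whether the change from whole testis to isolated cells set the members' levels was not tested.

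Pachytene and leptotene/zygotene levels overlapped for most members. Bcl6b and Nanos3 were higher in both pachytene libraries, Gfra1 was lower and the other 7 overlapped, where 46.2% of all genes that reach 1 FPKM were higher and 23% lower. Of the 6 members that reach 1 FPKM in a library of either table, 2 were higher, 1 was lower and 3 overlapped. The median log2 ratio was 0.24, or 0.41 over those 6 members, beside 0.30 over all genes, but -0.06 with the first condition of each table alone and -0.22 on the scale of Ddx4 and Dazl. Differentiating spermatogonia genes had a median ratio of 0.07, with 3 of 9 higher and 2 lower.

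At day 3, 7 of the 10 members fell in the second condition and none rose, where 14.8% of the 24020 genes tested were called, 9.97% lower and 4.8% higher. Because the members were chosen with earlier results of these data known, this contrast is a description and not a test. The members that fell were the GDNF receptor genes Gfra1 and Ret, the factors Etv5 and Zbtb16, both NANOS genes and Cdh1. All 10 had lower values in the second condition, with a median log2((FPKM + 0.1) ratio) of -1.16 and a range from -1.75 to -0.19, beside a median of 0.02 over all genes tested. A gene was called where the q-value of the authors' deposited table was at most 0.05. The error given with each fold is the log2 fold divided by its test statistic and covers counting and modelling error of 1 library pair, not the spread between animals.

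The receptor pair fell by similar amounts. For Gfra1 the authors' deposited table gave a log2 fold of -1.46 (implied error 0.23, q = 1.02e-08), and for Ret it gave -1.15 (implied error 0.24, q = 6.39e-05). The intervals, -1.90 to -1.01 for Gfra1 and -1.62 to -0.67 for Ret at 95%, overlapped. The partner that shares the Gfra1 locus, Gm16277, had 2.37 FPKM in the second and 1.11 FPKM in the first condition, opposite to Gfra1, and was not called (q = 0.223 in the authors' deposited table).

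Of the factors that respond to GDNF, Etv5 fell and Bcl6b was not called. The authors' deposited table gave Etv5 a log2 fold of -1.20 (implied error 0.19, q = 2.09e-08) and Bcl6b one of -0.27 (implied error 0.27, q = 0.562). Their 95% intervals, -1.57 to -0.82 for Etv5 and -0.80 to 0.27 for Bcl6b, did not overlap, and the difference between them was not itself tested. Zbtb16 had the lowest fold of the transcription factors, -1.84 in the authors' deposited table (implied error 0.34, q = 2.43e-06). Sall4, at -0.40 with an implied error of 0.21 (q = 0.219), and Taf4b, at -0.20 with an implied error of 0.27 (q = 0.683), were not called in the authors' deposited table.

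Both NANOS genes and Cdh1 fell too. The authors' deposited table gave Nanos3 a log2 fold of -1.23 (implied error 0.43, q = 0.0308) and Cdh1 one of -1.11 (implied error 0.30, q = 0.00310). Nanos2 was at -1.97 with an implied error of 0.73 and a q of 0.0494 in the authors' deposited table, just inside the threshold, from levels under 1 FPKM in both conditions. At a q of at most 0.01, 5 of the 7 remained called, without Nanos2 and Nanos3.

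**Figure D3:**
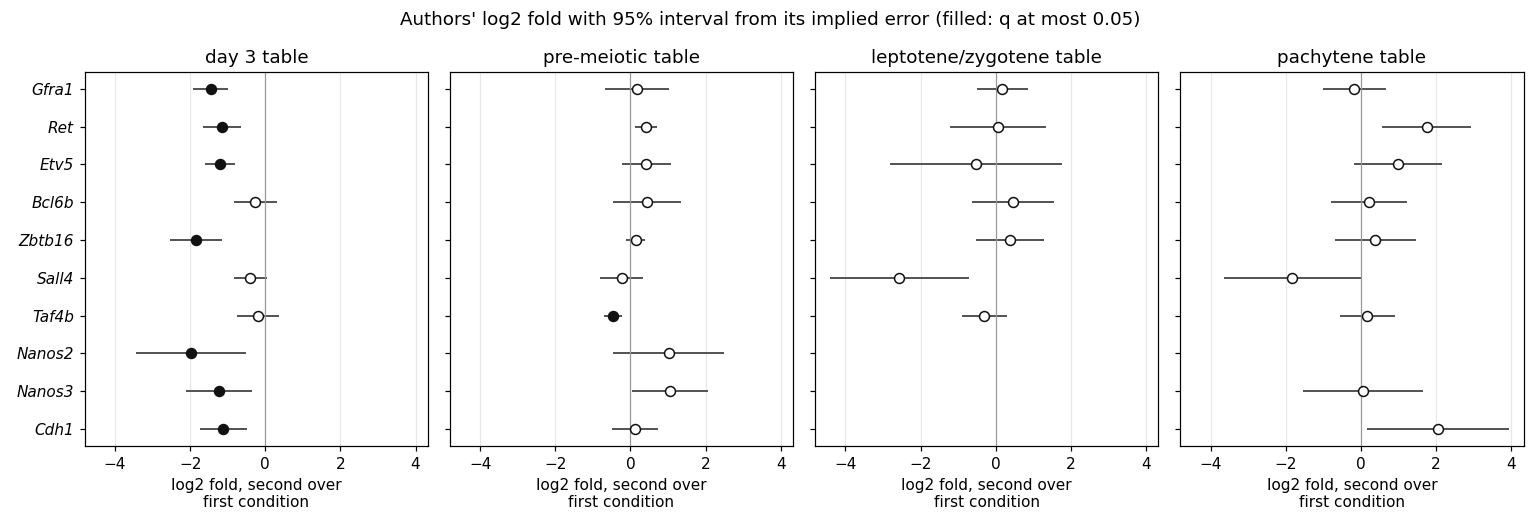
The authors' log2 fold of the second over the first condition for each member and table, with a 95% interval from its implied error; filled points have q at most 0.05, and members not tested or listed at 0 in a condition have no point. At day 3 all 10 points lie left of 0 and 7 are filled, and in the other tables only Taf4b in the pre-meiotic table is filled.

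General germ cell genes were lower by less than most members at day 3, and none of them was called. The helicase gene Ddx4 was at 12.2 FPKM in the second and 18.2 FPKM in the first condition and the RNA-binding gene Dazl at 20.0 FPKM in the second and 27.3 FPKM in the first condition, with q of 0.108 for Ddx4 and 0.278 for Dazl in the authors' deposited table. The list of 6 germ cell genes had 5 below 0, 0 called and a median of -0.37. Relative to the geometric mean of Ddx4 and Dazl, the 7 called members had lower shares in the second condition, for example Etv5 at 127% in the second and 205% in the first condition and Ret at 45.6% in the second and 70.9% in the first condition. The 3 members not called had higher shares there, with Bcl6b at 45.4% in the second and 38.3% in the first condition, Sall4 at 95.5% in the second and 88.3% in the first condition and Taf4b at 21.6% in the second and 17.3% in the first condition. That geometric mean was itself 15.6 FPKM in the second and 22.3 FPKM in the first condition. The shares rest on the same values as the calls, so this split adds no separate support.

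The ligand side of the pathway gave no calls at day 3. Gdnf itself was at 15.3 FPKM in the second and 14.7 FPKM in the first condition (q = 0.911 in the authors' deposited table), and 0 of 8 ligand and co-receptor genes were called, with a median of 0.10. Among 7 tested genes that respond to GDNF, 2 fell and 0 rose. They were the zinc finger factor genes Egr2, at 5.13 FPKM in the second and 10.1 FPKM in the first condition, and Egr3, at 1.07 FPKM in the second and 2.28 FPKM in the first condition, with q of 0.00156 for Egr2 and 0.0118 for Egr3 in the authors' deposited table. The median of the GDNF-responsive list was -0.08, and over all genes tested 9.97% fell. Lhx1, at 2.96 FPKM in the second and 4.44 FPKM in the first condition, was not called (q = 0.350 in the authors' deposited table). Of 8 immediate early genes at day 3, 1 fell, Egr1, at 40.5 FPKM in the second and 57.9 FPKM in the first condition, and 1 rose, Fos. Their q-values in the authors' deposited table were 0.00557 for Egr1 and 0.0144 for Fos.

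Of 13 other genes of undifferentiated spermatogonia 1 fell, the zinc finger gene Glis3, at 2.01 FPKM in the second and 7.01 FPKM in the first condition (q = 0.000838, from the authors' deposited table). None of the 13 rose, and over all genes tested 9.97% fell and 4.8% rose. The median of those 13 genes was -0.24. Foxo1, a transcription factor of these cells, was at 11.5 FPKM in the second and 13.6 FPKM in the first condition, and Lin28a, an RNA-binding protein gene, at 2.48 FPKM in the second and 3.79 FPKM in the first condition, with q of 0.617 for Foxo1 and 0.225 for Lin28a in the authors' deposited table. Of 10 genes of differentiating spermatogonia 3 fell and 0 rose (median -0.49), beside the 9.97% of all genes tested that fell, and which cells of the whole testis held these transcripts was not tested. These were Kit, the receptor of differentiating spermatogonia, at 4.16 FPKM in the second and 9.63 FPKM in the first condition, Gm1564, now named Meioc, at 0.618 FPKM in the second and 1.61 FPKM in the first condition, and the cyclin gene Ccnd2 at 102 FPKM in the second and 183 FPKM in the first condition. Their q-values in the authors' deposited table were 0.000427 for Kit, 0.0208 for Gm1564 and 0.0398 for Ccnd2.

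Some partners of the members fell at day 3, where 9.97% of all genes tested fell and 4.8% rose. Among partners of the NANOS proteins, Pum2, which encodes an RNA-binding protein, and Cnot1, the scaffold of the CCR4-NOT deadenylase, fell at day 3. Pum2 was at 40.4 FPKM in the second and 99.1 FPKM in the first condition (q listed as 0) and Cnot1 at 25.2 FPKM in the second and 46.2 FPKM in the first condition (q = 0.000241), by the authors' deposited table. Of 5 adherens junction genes the catenin genes Ctnnb1 and Ctnnd1 fell, 2 in all, with q of 5.08e-14 for Ctnnb1 and 0.000136 for Ctnnd1 in the authors' deposited table. None of the 8 TFIID subunits and relatives was called. These partners are expressed in many cell types of the testis.

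The day 3 differences moved with the span of the locus over all genes, and the members must be read beside that. The span is that of the locus listed for a gene, which can hold further genes, and need not be the length of the gene. Among tested genes at 1 FPKM or more, 2.02% fell in the class of loci under 3 kb, 7.45% between 10 and 30 kb, 18.3% between 30 and 100 kb and 28.5% between 100 and 300 kb. The median log2 difference was 0.36 in the class under 3 kb and -0.27 in the class from 100 to 300 kb, while the class medians of the other 3 tables lay between -0.09 and 0.09. Of the 6 members between 30 and 300 kb 5 fell, all but Taf4b, and of the 4 members under 30 kb the NANOS genes fell, 2 in all. Less the median of their span class, the values were -1.48 for Zbtb16, -1.16 for Gfra1, -1.05 for Etv5, -0.996 for Ret and -0.935 for Cdh1, and -1.78 for Nanos2 and -1.56 for Nanos3, whose class was higher in the second condition. Taf4b changed sign, to 0.08. Of the genes of differentiating spermatogonia that fell, Kit and Ccnd2 also lie in the class from 30 to 100 kb. Of the partners named above, Pum2 and Ctnnd1 lie in that class and Cnot1 in the class from 100 to 300 kb. The loci listed for Ctnnb1 and Glis3 span 353 kb and 461 kb, in the class from 300 kb, where 25.8% fell. Egr2 and Egr3 lie under 10 kb and Gm1564 between 10 and 30 kb. Less the median of the span class, the members' median was -1.02, a measure that was added after the data were seen.

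**Figure D4:**
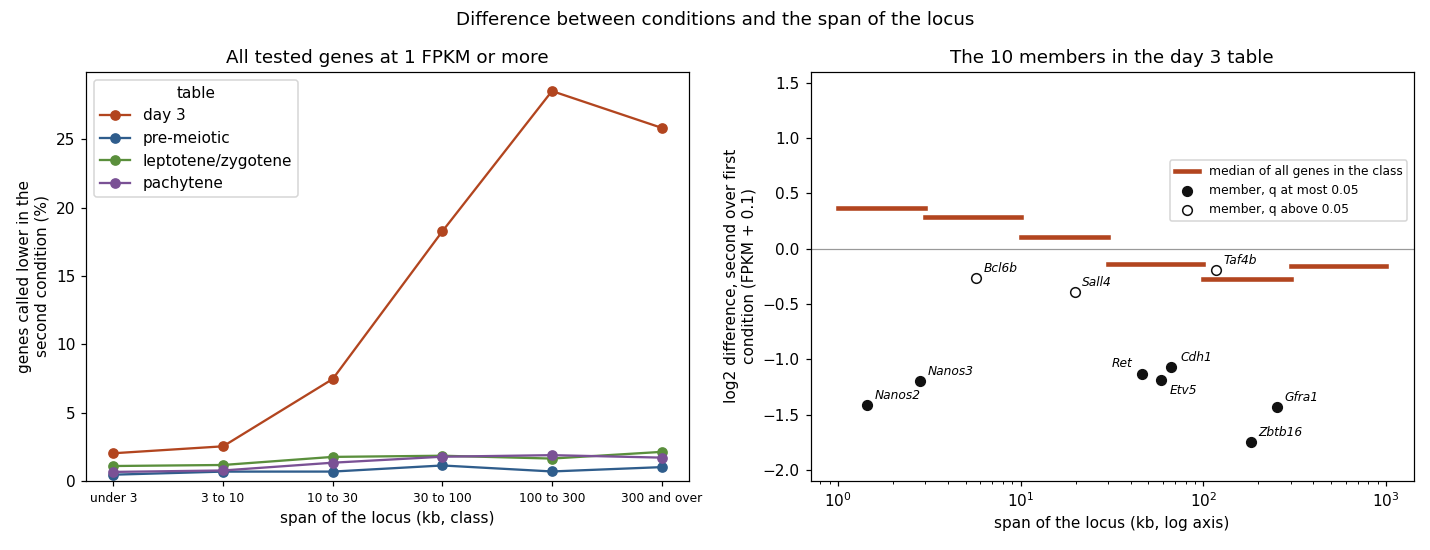
Left, the percent of tested genes at 1 FPKM or more that were called lower in the second condition, by class of locus span (kb) and table; right, the log2 difference of each member at day 3 (points, filled where q is at most 0.05) against its locus span on a log axis, with the median of all genes of each span class as a bar. In the day 3 table the share called is highest, at 28.5%, in the class from 100 to 300 kb, and the 7 called members lie below the bar of their class.

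Markers of other cells also differed between the day 3 libraries. Of 6 macrophage markers 3 rose (Lyz2, C1qa and Cd68), with list sums of 110 FPKM in the second and 62.2 FPKM in the first condition. Of 11 Sertoli cell markers 1 fell, Wt1, with sums of 4113 FPKM in the second and 3723 FPKM in the first condition. Leydig markers had 2 fall (Cyp17a1 and Star) and 1 rise (Insl3), endothelial markers had 2 fall (Tek and Pecam1), and myoid markers had 1 fall (Myh11) and 1 rise (Des). The span of the locus bears on these calls too. Tek, Pecam1, Myh11 and Wt1, which fell, span 136, 96.4, 96.9 and 47.1 kb, while Cyp17a1 and Star lie under 10 kb. Lyz2, C1qa and Cd68, which rose, span 4.99, 2.89 and 1.94 kb, and Insl3 and Des lie between 10 and 30 kb. Over all genes at 1 FPKM or more, 6.89% rose under 3 kb, 11.7% between 3 and 10 kb and 8.14% between 10 and 30 kb. No marker of these lists was at 0 at day 3. The part of these markers in the members' differences was not tested.

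Taf4b was the member called in the pre-meiotic table, where it fell, and 8 of the 10 members were above 0. Of the 20154 genes tested there, 1.15% were called, 0.68% lower and 0.471% higher in the second condition. The authors' deposited table gave Taf4b a log2 fold of -0.47 (implied error 0.11, q = 0.00337). The members' median log2 difference was 0.29, with a range from -0.47 to 1.04, beside 0.0013 over all genes tested.

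The 7 members that fell at day 3 were all at higher values in the second condition of the pre-meiotic table, and none of these was called. Since the order of the conditions may differ between tables, the signs of the tables cannot be set against each other. The authors' deposited table gave log2 folds of 0.18 for Gfra1 (q = 0.932), 0.41 for Ret (q = 0.146), 0.42 for Etv5 (q = 0.652) and 0.14 for Zbtb16 (q = 0.696). It gave 1.01 for Nanos2 (q = 0.647), 1.06 for Nanos3 (q = 0.431) and 0.12 for Cdh1 (q = 0.935), in the authors' deposited table. The errors set wide limits on the NANOS genes, with a 95% interval of 0.08 to 2.04 for Nanos3 and of -0.45 to 2.47 for Nanos2. For Zbtb16 the interval of -0.08 to 0.35 was narrower than its day 3 interval of -2.51 to -1.18. Bcl6b was at 0.45 (q = 0.770) and Sall4 at -0.24 (q = 0.811) in the authors' deposited table. Unadjusted p was under 0.05 for 3 members, Taf4b, Ret and Nanos3.

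The related lists of the pre-meiotic table are read beside the 1.15% of all genes called there. Of 8 TFIID subunits and relatives 7 were below 0, as Taf4b was, and 1 fell, Taf7l, a germline TFIID subunit, at 138 FPKM in the second and 194 FPKM in the first condition (q = 7.94e-08 in the authors' deposited table). Of 13 other genes of undifferentiated spermatogonia 0 were called (median 0.29), and Lin28a was at 31.0 FPKM in both conditions. Foxo1 was at 27.5 FPKM in the second and 28.1 FPKM in the first condition of the pre-meiotic table. Differentiating spermatogonia genes had 2 fall, Stra8, the retinoic acid target needed for meiotic entry, and Gm1564 (median -0.29). Leptotene and zygotene genes had 4 of 6 fall (median -0.90), and general germ cell genes 2 of 6, Dazl and Tex101 (median -0.36). Epcam, an adhesion gene, fell to 18.8 FPKM in the second condition, against 27.4 FPKM in the first condition (q = 0.0224 in the authors' deposited table). Among markers of other cells, 1 of 11 Sertoli cell markers rose, Amh, at 98.3 FPKM in the second and 75.6 FPKM in the first condition (q = 0.0392 in the authors' deposited table). None of the Leydig, myoid, endothelial and macrophage markers was called, and the macrophage markers summed to 56.5 FPKM in the second and 38.0 FPKM in the first condition. The part of these markers in the members' values was not tested. Relative to the geometric mean of Ddx4 and Dazl, Ret was at 9.89% in the second and 6.12% in the first condition, and Taf4b at 14.04% in the second and 16.1% in the first condition. Dazl itself fell in the pre-meiotic table (q = 0.00174 in the authors' deposited table), so this scale differed between the conditions.

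In the spermatocyte tables no member was called. At leptotene/zygotene 8 members were tested, all but Nanos2 and Cdh1, 6 of the 10 were under 1 FPKM in both conditions, and 0 were called, beside 2.14% of the 19524 genes tested (1.33% lower and 0.804% higher). Unadjusted p was under 0.05 for 2 members, Sall4 and Nanos3. The median log2 difference of the 7 tested members with a finite ratio was 0.05. At pachytene 9 were tested, all but Nanos2, and 0 called, beside 1.63% of the 22322 genes tested (1.01% lower and 0.614% higher), with a median of 0.22 and a range from -1.73 to 1.46. Unadjusted p was under 0.05 for 3 of them, Ret, Sall4 and Cdh1.

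Sall4 had the lowest log2 fold of the tested members in both spermatocyte tables. The authors' deposited table gave it a log2 fold of -2.57 at leptotene/zygotene (implied error 0.93, q = 0.148) and of -1.83 at pachytene (implied error 0.92, q = 0.426). The 95% intervals were wide, -4.39 to -0.74 at leptotene/zygotene and -3.62 to -0.03 at pachytene. Ret and Cdh1 went the other way at pachytene, at log2 folds of 1.76 (implied error 0.59, q = 0.111) and 2.05 (implied error 0.95, q = 0.367) in the authors' deposited table, from levels under 1 FPKM. Etv5 was at 0.997 at pachytene (q = 0.528) and at -0.52 at leptotene/zygotene (q = 0.924) in the authors' deposited table. Gfra1, Taf4b and Bcl6b stayed between -0.30 and 0.46 in both tables by the authors' deposited table.

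Markers of other cells and of stimulation differed in the spermatocyte tables. Of 8 immediate early genes 6 rose in each table, with sums of 151 FPKM in the second and 51.5 FPKM in the first condition at leptotene/zygotene and of 154 FPKM in the second and 38.4 FPKM in the first condition at pachytene. Of 5 myoid markers 4 rose at leptotene/zygotene, with sums of 33.5 FPKM in the second and 7.84 FPKM in the first condition, and 3 rose at pachytene, with sums of 26.7 FPKM in the second and 11.5 FPKM in the first condition. Of 5 endothelial markers 1 rose at leptotene/zygotene and 3 rose at pachytene, where the sums were 8.97 FPKM in the second and 2.86 FPKM in the first condition. Their part in the values of Ret, Cdh1 and Sall4 was not tested. The GDNF-responsive gene Egr3 fell at leptotene/zygotene, to 3.45 FPKM in the second condition, against 8.74 FPKM in the first condition (q = 0.0250 in the authors' deposited table).

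The genes most like the members over the 8 columns were ranked by Pearson correlation with the members' mean standardised profile of log2(FPKM + 0.1). The 8 highest of 22082 genes, with predicted and clone names left out, were Glg1, Uprt, Arhgef12, Pggt1b, Nr3c1, Adcy9, Hivep2 and Akap13, with r of 0.998 for Glg1 and 0.996 for Akap13. The profile was a common one, since 5539 genes, 25.1%, had r of at least 0.9, and the columns share tables and stages. Among listed genes of spermatogonia, the highest were Foxo1, with an r of 0.982, and Dmrt1, a factor of spermatogonia and Sertoli cells, with 0.981. They had 280 and 336 genes above them. The Sertoli cell marker Aard, at 0.984, ranked with them. General germ cell genes went both ways. Dnd1 was at 0.916 and Dazl at 0.663, but Tex14 was at -0.269, Tex101 at -0.291, Ddx4 at -0.703 and Mael at -0.846. The stem cell marker Id4 was at -0.384.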

How the data were processed

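The 4 deposited tables hold 36806 genes each. The submitters' processing notes name Cuffdiff, Cufflinks 1.1.0, TopHat 1.3.0 and Bowtie 0.12.7. Libraries were prepared from Trizol RNA with a TruSeq kit, per the labels' protocols. Per the file headers, the authors deposited FPKM for both conditions of each table, a log2 fold, a test statistic (a score whose sign is opposite to the fold in all tested genes), a p-value and a q-value for each gene. In tested genes above 0 in both conditions, the deposited log2 fold and the log2 ratio of the FPKM values differed by at most 4.91e-05. Genome build and annotation are not given in the sources used here.

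From these, log2((FPKM + 0.1) ratio) was computed within each table, with no ratio where a condition is listed at 0. Calls are the deposited q-values of at most 0.05, over the whole table. The design has 1 library per condition, so no test across samples was run. Library depth is unknown because the files hold no counts, and the implied error, with a median of 0.31 at day 3, 0.25 in the pre-meiotic table, 0.41 at leptotene/zygotene and 0.46 at pachytene, is the only measure of precision. Stages were compared by whether both libraries of one table lay outside both of the other, for all members and, for the shares of all genes and of lists, over genes that reach 1 FPKM in a library of either table.

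The 10 members and the 18 gene lists were chosen with earlier results of these data known. Named genes are all members, list genes with a called difference (up to 4 per list and table, by size) and the 8 genes most like the members. Other list genes given by value, and Gm16277, were chosen after their values were seen. Of the list symbols 132 were found by symbol, and 1 was not used here. A result of the list of NANOS partners is not reported here, and its count is left out. Alternatives were other pseudocounts, scalings, q thresholds and filters, each condition alone, a subtraction of the span-class median and leaving out the 3 members whose locus holds a further gene; the last 2 were chosen after the data were seen. The scripts were tested on simulated data and run in Python 3.11.15 with pandas 2.3.3 and numpy 2.4.6; figures were drawn with matplotlib 3.10.9.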

Additional observations from a re-analysis of the deposited data

How the results depend on the processing

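Counts of called members stayed within 1.5 times of the reported ones under all alternatives: at day 3, 7 were called at q at most 0.10, 6 when adjusted over genes at 1 FPKM or more, 5 at q at most 0.01 and 5 without the 3 members whose locus holds a further gene, and the counts of 1, 0 and 0 in the later tables did not change. The day 3 median of -1.16 was -0.88 with a pseudocount of 1 FPKM. The leptotene/zygotene median of 0.05 was -0.39 over the members that reach 1 FPKM in a condition. The pre-meiotic over day 3 median ratio of 0.41 turned to -2.44 on the scale of Ddx4 and Dazl and ranged from -0.45 to 0.85 when 1 condition was left out. The leptotene/zygotene over pre-meiotic median of -3.63 was -3.09 on the upper quartile scale, -2.78 on the scale of Ddx4 and Dazl and -2.43 with a pseudocount of 1 FPKM, and ranged from -3.56 to -2.99 when 1 condition was left out. The pachytene over leptotene/zygotene median of 0.24 turned to -0.22 on the scale of Ddx4 and Dazl and ranged from -0.061 to 0.43 when 1 condition was left out. For single values, other pseudocounts and the authors' log2 fold cannot change the sign. Only the rescaling and the subtraction of the span-class median could reverse a value, so the count of kept directions was in large part fixed in advance. Among single values, 183 of 185 kept their direction. The exceptions came with the subtraction of the span-class median, at 0.082 for Taf4b at day 3 and -0.033 for Nanos3 at pachytene. Neither was called. The cause of these shifts was not tested. Unknown depth, 1 library per condition and the overlapping loci limit every value, and the members' median implied error was 0.54 at leptotene/zygotene and 0.59 at pachytene, beside 0.27 at day 3. No paired analysis was possible because each condition has 1 library and the columns carry no replicate number.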

Other observations

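Of 11 paralogs of the members that reach 1 FPKM in a library of either table, 9 were lower and 2 higher in both leptotene/zygotene than in both pre-meiotic libraries, with a median log2 ratio of -3.11, beside -3.63 for the members. The values of Cdh2, Gfra4 and Id4 are given because they stood high at pachytene, and these genes were chosen after their values were seen. Cdh2, the gene of N-cadherin, was at 27.7 FPKM in the second and 29.6 FPKM in the first condition at pachytene, where Cdh1 was under 1 FPKM, and at 12.3 FPKM in the second and 14.6 FPKM in the first condition at day 3. Gfra4, another co-receptor of the GDNF family, was at 21.4 FPKM in the second and 24.1 FPKM in the first condition at pachytene, where Gfra1 was under 2 FPKM. Id4, an inhibitor of transcription factors used as a stem cell marker in the mouse testis, was at 26.6 FPKM in the second and 20.8 FPKM in the first condition at pachytene and at 8.97 FPKM in the second and 7.73 FPKM in the first condition at day 3. Of these, none was called in either table.

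Among relatives of Etv5, Etv1 fell at day 3, to 8.65 FPKM in the second condition, against 19.5 FPKM in the first condition (q = 1.44e-06 in the authors' deposited table), and Etv4 to 20.1 FPKM in the second condition, against 27.9 FPKM in the first condition (q = 0.0246 in the authors' deposited table). Etv1 and Etv4 were the 2 called of 10 tested paralogs of all the members, beside 14.8% of all genes tested. Their loci span 88.8 kb for Etv1 and 15.6 kb for Etv4.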
